A study of Homo sapiens with 4 samples.

Results

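The genes of 9 AP-1 and immediate early transcription factors, JUN, JUNB, JUND, FOS, FOSB, FOSL2, EGR1, ATF3 and KLF6, were examined in the accessible chromatin of ME-1 cells. The sites described are all peaks with a midpoint within 50 kb of an approximate start of each gene on genome build hg19. These 9 windows held 127 of the 103230 regions formed by merging the peak lists of 4 libraries. The assay was ATAC-seq, where Tn5 transposase cuts open DNA and adds sequencing adapters to it. ME-1 is an established human leukaemia line carrying inv(16), which fuses CBFB to MYH11 and yields the protein CBFβ-SMMHC. The AI-10-49 group (2 libraries) had received 1 µM AI-10-49, an inhibitor of the contact between CBFβ-SMMHC and RUNX1, for 6 h. The DMSO group (2 libraries) had received the solvent for the same 6 h. The cells of both groups carry the fusion, and a single cell line limits the model.

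AP-1 is a dimer of basic leucine zipper proteins of the JUN, FOS and ATF families that binds short palindromic DNA sites. Many of its genes are immediate early genes: their promoters are held open, and signals acting through kinases and the factor SRF switch them on within minutes without new protein synthesis. In myeloid cells AP-1 often occupies enhancers together with RUNX1, and JUN and EGR1 take part in monocytic differentiation.

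Promoter sequence was taken from RefSeq (GRCh38.p14) for the genes whose start regions differed most in presence or height between the treatments (JUN, JUND, KLF6, FOSB) and for EGR1, an SRF target. Each line holds the 250 bases before the start, and all 9 genes had an entry. Capitals mark selected matches to the searched motifs: CCAAT and TGACATCA in JUN, TGACATCA and CACGTG in KLF6, TGACGTCA in JUND, the CArG box of SRF in EGR1, and GGGCGG and TATAAA in FOSB. Further matches, such as GGGCGG in JUN, KLF6 and JUND and CCAAT in KLF6 and JUND, stay in lower case. The positions are chr1:58784048-58784297 (minus strand) for JUN, chr10:3785210-3785459 (minus) for KLF6, chr19:18281623-18281872 (minus) for JUND, chr5:138465229-138465478 (plus) for EGR1 and chr19:45467746-45467995 (plus) for FOSB. They are GRCh38.p14 positions, whereas every peak position in the following paragraphs is on hg19.
JUN: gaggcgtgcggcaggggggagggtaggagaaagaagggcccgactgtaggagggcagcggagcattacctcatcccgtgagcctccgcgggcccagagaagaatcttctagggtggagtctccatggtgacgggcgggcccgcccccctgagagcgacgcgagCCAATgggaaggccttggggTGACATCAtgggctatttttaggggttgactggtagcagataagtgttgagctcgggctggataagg
KLF6: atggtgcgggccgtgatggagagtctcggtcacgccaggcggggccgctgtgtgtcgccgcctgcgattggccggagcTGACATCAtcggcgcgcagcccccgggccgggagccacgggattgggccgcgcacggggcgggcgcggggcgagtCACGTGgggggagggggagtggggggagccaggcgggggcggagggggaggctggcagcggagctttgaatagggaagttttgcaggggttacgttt
JUND: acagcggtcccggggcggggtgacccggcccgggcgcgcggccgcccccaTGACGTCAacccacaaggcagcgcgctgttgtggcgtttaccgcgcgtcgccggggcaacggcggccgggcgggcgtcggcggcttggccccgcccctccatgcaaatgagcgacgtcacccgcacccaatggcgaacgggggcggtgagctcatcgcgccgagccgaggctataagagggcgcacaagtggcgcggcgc
EGR1: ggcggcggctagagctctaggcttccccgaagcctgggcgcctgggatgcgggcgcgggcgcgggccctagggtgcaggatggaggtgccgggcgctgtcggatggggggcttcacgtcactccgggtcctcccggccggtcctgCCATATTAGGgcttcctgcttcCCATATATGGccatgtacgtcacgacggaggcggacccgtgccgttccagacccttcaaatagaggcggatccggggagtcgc
FOSB: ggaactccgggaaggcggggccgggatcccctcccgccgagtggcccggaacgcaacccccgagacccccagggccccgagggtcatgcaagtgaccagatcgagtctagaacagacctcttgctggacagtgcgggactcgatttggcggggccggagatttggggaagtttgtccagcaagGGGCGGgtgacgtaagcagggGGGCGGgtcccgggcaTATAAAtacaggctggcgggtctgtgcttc

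Motifs were searched on both strands from 250 bases before to 50 bases after each RefSeq start, and no matches to different motifs overlapped in the promoters shown. TGACATCA, a site bound by JUN and ATF dimers, lay at positions -67 to -60 of JUN, at -172 to -165 of KLF6 and at -123 to -116 of the upstream ATF3 start, and 2.6% of 34796 RefSeq promoters hold it. TGACGTCA, the cyclic AMP response element, lay at -200 to -193 of JUND (1.84% of promoters hold it), and TGACTCA, the classical AP-1 site, at 5 to 11 of FOSL2 (4.96%). EGR1 had CArG boxes at -105 to -96 and at -83 to -74 (1.3% of promoters have one). GGGCGG was found for 7 of the 9 genes (44.9% of promoters), CCAAT for 5 (34.6%), TATAAA for 4 (11.6%) and CACGTG for KLF6 alone (7.2%). The RUNX motif TGTGGT was found for 0 of the 9 (13.1% of promoters). A gene counted if any of its RefSeq windows held a match, whereas the shares count single windows, so the 2 are not strictly alike. At ATF3 the TATAAA match lay in a different window from those of GGGCGG and CCAAT. A match describes letters of the window and is no evidence of binding.

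The full lists held 48930 and 53438 peaks in AI-10-49 replicates 1 and 2, against 67388 and 65132 in DMSO replicates 1 and 2. Summit reads, recovered from the authors' fold and p-value, were at least 3 per peak with AI-10-49 and at least 2 with DMSO, and the usual background was 0.0965 and 0.108 reads per base with AI-10-49 and 0.0613 and 0.060 with DMSO. List length and minimum thus moved with treatment, and their part in the results below was not tested. The strongest region within 2 kb of the start was in all 4 lists for the blood genes SPI1, PTPRC and MPO. For CD34 it was in both DMSO lists only, and weaker regions were not counted. ALB, INS, MYOD1 and NEUROD1, genes of liver, pancreas, muscle and neurons, had no region within 2 kb in any list.

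Accessible sites in the 9 windows were about as numerous after AI-10-49 as with DMSO, although the full lists were shorter. The windows held 79 and 87 peaks in the AI-10-49 libraries, against 82 and 77 in the DMSO libraries (mean 83.0 ± 5.66 and 79.5 ± 3.54, SD, n = 2 each). The groups overlapped. As a share of all peaks in a list this was 0.161% and 0.163% with AI-10-49, against 0.122% and 0.118% with DMSO. The mean difference of 3.5 peaks was -0.5 without AI-10-49 replicate 2, and it was 15.5 among peaks reaching 5 in −log10 q-value but -1.5 among summits of 60 times the background or more. In windows of 100 kb to each side it was -4.5.

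**Figure D1:**
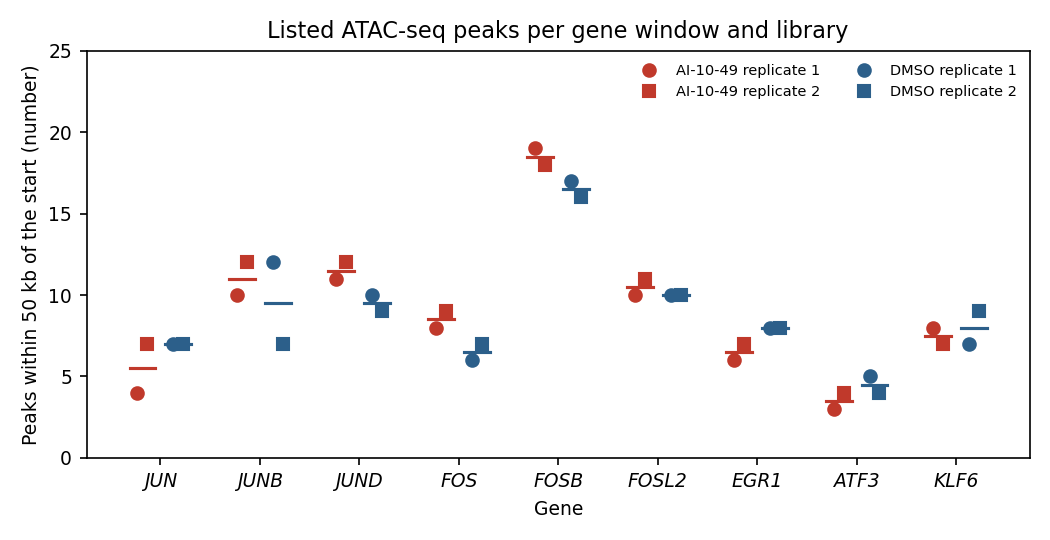
Number of listed peaks within 50 kb of the start of each gene (vertical axis) for each library; circles are replicate 1, squares replicate 2 and short lines group means (n = 2). FOSB had the most peaks, with 19 and 18 in the AI-10-49 and 17 and 16 in the DMSO libraries, and ATF3 the fewest, with 3 and 4 against 5 and 4.

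By gene, the JUND, FOS and FOSB windows had more peaks in both AI-10-49 libraries than in either DMSO library, and the EGR1 window had fewer. JUND, a constitutively expressed JUN protein, had 11 and 12 peaks with AI-10-49 and 10 and 9 with DMSO. FOS, the founding FOS protein, had 8 and 9 with AI-10-49 and 6 and 7 with DMSO. The window of FOSB, its closest relative, had 19 and 18 with AI-10-49 and 17 and 16 with DMSO. These are small numbers: each of the 3 windows had a mean difference of 2 peaks. EGR1, a zinc finger factor, had 6 and 7 peaks with AI-10-49 and 8 and 8 with DMSO. In the other 5 windows the groups overlapped. Two-sided exact permutation tests gave p = 0.333 at the smallest, which is the floor for 2 against 2 libraries (adjusted p at least 0.75 over the 9 windows). More peaks in both AI-10-49 libraries were found in 1.96% of all 100 kb tiles of the genome with a peak, in 4.26% of tiles with at least the 16 peaks of the poorest window, and in 5.75% of tiles of chromosome 19, where JUNB, JUND and FOSB lie. Fewer peaks in both were found in 21.3% of all tiles and in 21.6% of those with at least 16 peaks.

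Most regions were either shared by all libraries or seen once. Of the 127 regions, 42 were listed in all 4 libraries (33.1%), against a background of 28.1% of all merged regions, and 42 in a single library (33.1%), against 43.9%. Sharing was densest at FOSL2, a FOS protein of slower kinetics, where 8 of 13 regions were in all 4 lists. It was sparsest at KLF6, a zinc finger growth regulator, with 2 of 15. Within 2 kb of a start 13 of 25 regions were in all 4 lists, against 29 of 102 beyond 2 kb. The next protein-coding genes on either side in RefSeq GRCh38.p14 are HOOK2 and PRDX2 for JUNB, IQCN and LSM4 for JUND, and ERCC1 and RTN2 for FOSB. Which gene a distal region serves was not tested. Starts of neighbouring genes were not located on hg19, so a region called distal may lie at the start of another gene.

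**Figure D2:**
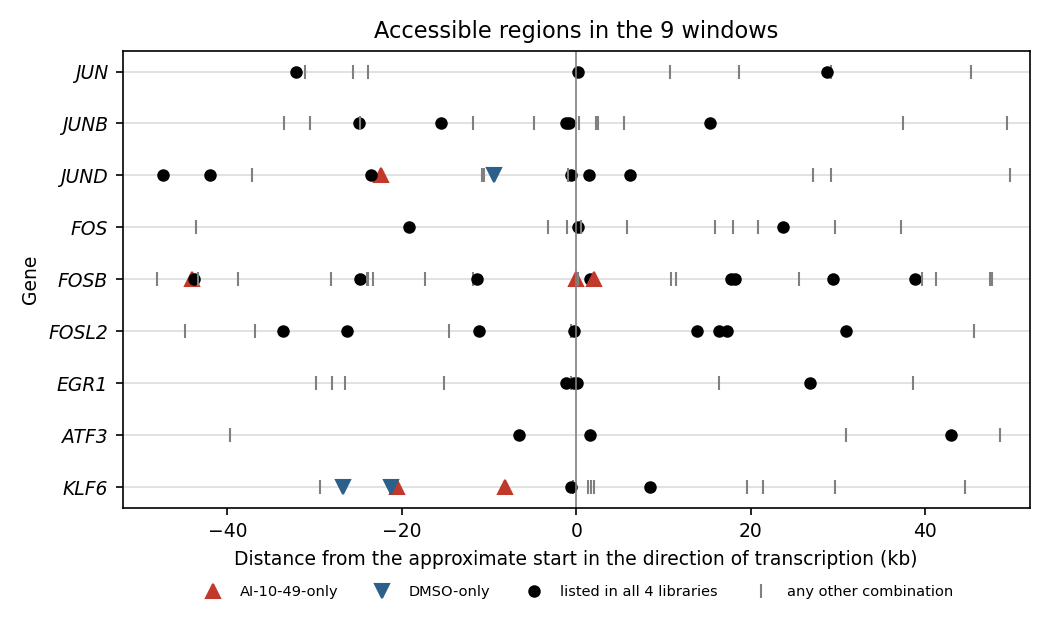
Position of the 127 regions relative to the approximate start of each gene, in kb along the direction of transcription (negative is upstream). Red triangles mark the 6 regions listed in both AI-10-49 libraries and neither DMSO library, blue triangles the 3 in the opposite case, black dots the 42 in all 4 libraries and grey ticks any other combination; 3 of the 6 red triangles are at FOSB.

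Regions found in both AI-10-49 libraries and in neither DMSO library, called AI-10-49-only, numbered 6 of the 62 regions listed in both AI-10-49 libraries (9.68%), against a background of 5.36%. DMSO-only regions, defined the opposite way, numbered 3 of 54 (5.56%), against 11.8%. The order of these counts turned among summits of 60 times the background or more, with 2 of 46 AI-10-49-only (4.35%, background 3.0%) and 5 of 44 DMSO-only (11.4%, background 17%). Of the 6 AI-10-49-only regions FOSB had 3. The first, chr19:45970920-45970990, lay at its start with 9 and 7 summit reads in AI-10-49 replicates 1 and 2 and no listed peak with DMSO. The second, chr19:45973053-45973135, lay 2.09 kb downstream with 10 and 9 reads. Another, chr19:45926875-45926980, lay 44.1 kb upstream with 6 and 6 reads. Other regions near the FOSB start did not follow treatment in the same way. At chr19:45971213-45971290, 0.252 kb downstream, a region was listed in AI-10-49 replicate 1 alone, with 7 reads. At chr19:45972458-45972754, 1.61 kb downstream, every list held a region, of 7 and 9 reads with AI-10-49 and 4 and 5 with DMSO. An unlisted site need not be closed, since a list holds only peaks that passed the authors' peak calling.

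KLF6 had AI-10-49-only regions 8.14 kb upstream (chr10:3835091-3835193, 4 and 5 reads) and 20.6 kb upstream (chr10:3847504-3847632, 9 and 5 reads). It also had DMSO-only regions 21.2 kb upstream (chr10:3848100-3848292, 3 and 5 reads) and 26.8 kb upstream (chr10:3853727-3853830, 5 and 5 reads). The upstream flank of KLF6 therefore held both kinds within 20 kb of each other. At JUND an AI-10-49-only region lay 22.4 kb upstream (chr19:18414339-18414462, 4 and 9 reads) and a DMSO-only region 9.38 kb upstream (chr19:18401316-18401436, 3 and 3 reads). The windows of JUN, JUNB, FOS, FOSL2, EGR1 and ATF3 held 0 regions of either kind.

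Heights of shared regions were described by relative height, the summit reads divided by the median summit reads of all regions listed in all 4 libraries in the same library. That median was 9 and 10 reads in the AI-10-49 libraries and 8 and 7 in the DMSO libraries. As these medians are small whole numbers, relative height is a coarse scale, and groups apart by a small margin may rest on it. Fold and p-value are the authors' values within a list, so heights are given without a test.

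The JUN promoter stood higher after AI-10-49 in both libraries. JUN is the main partner of FOS in AP-1 and binds its own promoter. Its start region, chr1:59249558-59250064, had 25 and 24 summit reads with AI-10-49, against 10 and 11 with DMSO. Exact 95% Poisson intervals, which cover counting error only, were 16.2 to 36.9 and 15.4 to 35.7 reads with AI-10-49, and 4.80 to 18.4 and 5.49 to 19.7 with DMSO. Both AI-10-49 counts lay above both DMSO counts, while the intervals overlapped. The local background around the summit was 11.2 and 10.9 times the usual one with AI-10-49 and 6.88 and 7.27 times with DMSO, so it moved with the height, and its part was not tested. Relative height was 2.59 ± 0.267 with AI-10-49 and 1.41 ± 0.227 with DMSO (SD, n = 2 each), a ratio of 1.84 (log2 0.88). Of the 29037 regions in all 4 libraries with recovered reads, 2.94% had a ratio at least as large. Leaving out 1 library at a time gave log2 ratios of 0.72 to 1.05. The peak itself was 438 and 507 bp wide with AI-10-49 and 349 and 328 bp with DMSO.

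KLF6 and JUND followed the same order. The KLF6 start region, chr10:3827526-3827747, had 29 and 29 reads with AI-10-49, against 17 and 13 with DMSO, and relative heights of 3.06 ± 0.228 and 1.99 ± 0.189 (SD, n = 2 each; log2 ratio 0.62). The JUND start region, chr19:18392413-18392739, had 19 and 21 reads with AI-10-49, against 13 and 8 with DMSO, and relative heights of 2.11 ± 0.00786 and 1.38 ± 0.341 (log2 ratio 0.61). In relative height the groups did not overlap at either gene. Scaled to the usual background of each library they did: KLF6 stood at 300.6 and 269.6 times with AI-10-49 and 277.4 and 216.6 times with DMSO, and JUND at 196.9 and 195.2 times with AI-10-49 and 212.1 and 133.3 times with DMSO. Without 1 library at a time the log2 ratio was 0.53 to 0.72 for KLF6 and 0.37 (without DMSO replicate 2) to 0.88 for JUND. For both, about as many shared regions of the genome reached such a ratio, 8.92% for KLF6 and 9.44% for JUND. Other regions near the KLF6 start did not all follow this order. The region chr10:3825567-3825717 had 7 reads in AI-10-49 replicate 1, no peak in replicate 2, and 8 and 8 reads with DMSO. At chr10:3825167-3825341 there were 12 and 9 reads with AI-10-49, 9 in DMSO replicate 2 and no peak in DMSO replicate 1. Both chr10:3824971-3825062 and chr10:3827370-3827446 were listed in AI-10-49 replicate 1 alone, with 7 reads.

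FOS stood the other way by a small margin. Its start region, chr14:75745143-75745290, had 11 and 13 reads with AI-10-49 and 11 and 10 with DMSO, and the relative heights were 1.26 ± 0.055 and 1.40 ± 0.0379 (SD, n = 2 each; log2 ratio -0.15). An adjoining region 0.505 kb downstream of the approximate start, chr14:75745438-75745571, had 12 and 5 reads with AI-10-49 and 6 reads in DMSO replicate 2, with no peak in DMSO replicate 1. In reads the groups met at 11, while in relative height they lay apart, and 61.6% of all shared regions had a ratio at least as large as that of FOS.

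**Figure D3:**
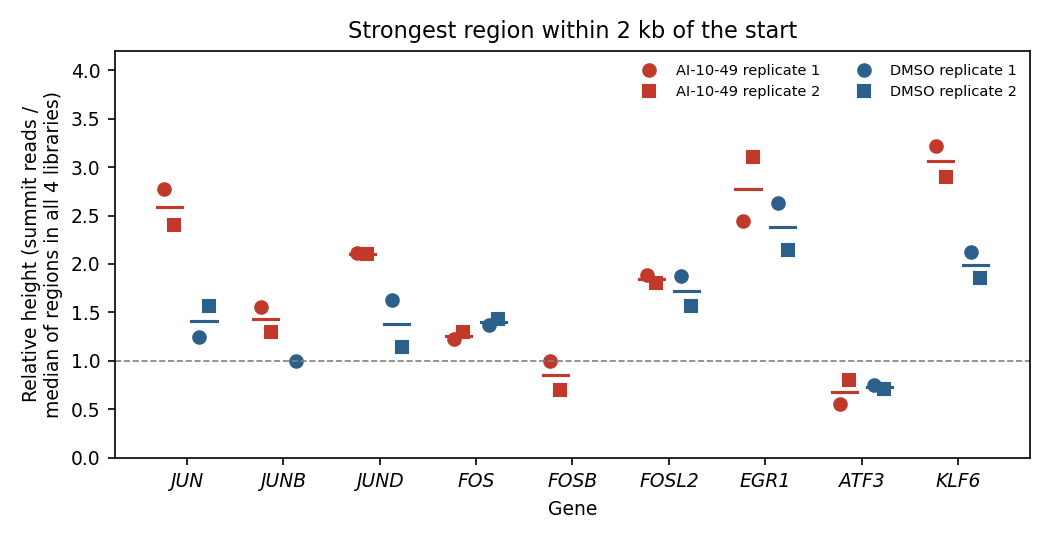
Relative height of the strongest region within 2 kb of each start (vertical axis; the dashed line at 1 is the median of regions in all 4 libraries), by library, with group means as short lines where both libraries listed it. JUN, JUND and KLF6 lie higher in both AI-10-49 libraries, FOS slightly lower, FOSL2, EGR1 and ATF3 overlap, the JUNB region plotted is not listed in DMSO replicate 2 and the FOSB region plotted is not listed with DMSO.

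For FOSL2, EGR1 and the upstream start of ATF3 the groups overlapped in relative height. Scaled to the usual background of each library, FOSL2 and ATF3 lay lower in both AI-10-49 libraries. FOSL2 stood at 176.2 and 167.3 times with AI-10-49 and 244.8 and 183.2 times with DMSO. The upstream ATF3 region stood at 51.83 and 74.37 times with AI-10-49 and 97.9 and 83.29 times with DMSO. On that scale the median log2 ratio of all shared regions was -0.42. The FOSL2 start region, chr2:28615571-28615815, had 17 and 18 reads with AI-10-49 and 15 and 11 with DMSO (log2 ratio of relative height 0.10). The EGR1 promoter carried a row of sites. The strongest, chr5:137800679-137800896, had 22 and 31 reads with AI-10-49 and 21 and 15 with DMSO (log2 ratio 0.22). The next site, chr5:137801023-137801181, had 16 and 24 reads with AI-10-49 and 14 and 14 with DMSO. Farther out, chr5:137799744-137800000 had 14 and 14 reads with AI-10-49 and 11 and 5 with DMSO, and there the relative heights did not overlap (log2 ratio 0.50). ATF3, a stress-induced repressor, has alternative starts. Near the upstream one, chr1:212740522-212740737 had 5 and 8 reads with AI-10-49 and 6 and 5 with DMSO (log2 ratio -0.11). Near the downstream one, 43.0 kb away, chr1:212781741-212782167 had 15 and 23 reads with AI-10-49 and 11 and 11 with DMSO (log2 ratio 0.43, groups apart in relative height). The downstream start was the taller site in every library.

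JUNB, a JUN protein that often restrains growth, had several neighbouring regions at its start, as had most of the 9 genes. Only JUN and ATF3 had a single region within 2 kb. The strongest region at its start, chr19:12902135-12902396, had 14 and 13 reads with AI-10-49 and 8 reads in DMSO replicate 1, and was not listed in DMSO replicate 2. The local background there was 14.6 and 15.8 times the usual one with AI-10-49 and 12.3 times in DMSO replicate 1 (its part in the missing peak was not tested). Upstream regions at chr19:12900699-12901002 (14 and 11 reads with AI-10-49, 12 and 6 with DMSO) and chr19:12901067-12901205 (14 and 9, against 6 and 8) were listed in all 4. The strongest start region was listed in all 4 libraries for 7 of the 9 genes, the exceptions being JUNB and FOSB. At both genes another region near the start was in all 4 lists. The strongest region was chosen by the mean percentile over the lists holding it, and at JUNB the exception rests on this. At JUNB the chosen region had a mean percentile of 45.4 over its 3 lists, where chr19:12900699-12901002, listed in all 4, had 46.2 over the same 3. At FOSB the chosen region had 31.0 and the region listed in all 4 libraries had 30.2. Over the 2 lists holding the chosen region, the region listed in all 4 had 29.2, so the chosen one stayed ahead by a small margin. As each region was chosen as the strongest of its neighbourhood, the count of 7 is not comparable with the 28.1% of all regions.

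In mean reads over the libraries listing them, a shared site beyond 2 kb was taller than the strongest start region at all genes but EGR1 and KLF6; at ATF3 it was the downstream start, and at JUND and JUNB the margin was under 1 read. The strongest JUN site by mean percentile lay 28.8 kb downstream of the start, at chr1:59221038-59221458, with 30 and 22 reads with AI-10-49 and 18 and 19 with DMSO (relative height 2.77 ± 0.801 and 2.48 ± 0.328, groups overlapping). The FOSL2 site 26.3 kb upstream, chr2:28589577-28589922, had 19 and 24 reads with AI-10-49 and 11 and 17 with DMSO, again with overlapping relative heights. The FOS site 19.1 kb upstream, chr14:75725689-75726041, had 18 and 16 reads with AI-10-49 and 11 and 11 with DMSO (log2 ratio 0.29, groups apart). A larger gap was seen 15.5 kb upstream of JUNB: chr19:12886413-12886581 had 16 and 20 reads with AI-10-49, against 7 and 5 with DMSO. Its relative height was 1.89 ± 0.157 with AI-10-49 and 0.795 ± 0.114 with DMSO (SD, n = 2 each), and its log2 ratio of 1.25 was the largest of the 42 shared regions. HOOK2 is the next gene on that side, and whether this region lies at the HOOK2 start was not checked. A second, weaker site 24.9 kb upstream of JUNB, chr19:12876926-12877220, had 5 and 6 reads with AI-10-49 and 3 and 2 with DMSO (log2 ratio 0.81, groups apart).

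FOSB had 3 shared regions upstream and 4 far downstream. The tallest, chr19:45988581-45988838, lay 17.7 kb downstream with 17 and 13 reads with AI-10-49 and 15 and 11 with DMSO (log2 ratio -0.11, groups overlapping). Next to it, chr19:45989126-45989274 had 8 and 6 reads with AI-10-49 and 3 and 3 with DMSO (log2 ratio 0.89). Farther downstream, chr19:46000318-46000563 (29.4 kb) had 14 and 19 reads with AI-10-49 and 12 and 5 with DMSO (log2 ratio 0.64). The outermost of the row, chr19:46009795-46009913 (38.9 kb), had 13 and 14 reads with AI-10-49 and 8 and 5 with DMSO (log2 ratio 0.73). In the last 3 regions relative height did not overlap between the groups, and in the 3 shared regions upstream of FOSB it did (log2 ratios -0.09 to 0.43).

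At JUND the tallest distal site, 42.0 kb upstream at chr19:18433885-18434198, had 15 and 21 reads with AI-10-49 and 16 and 12 with DMSO (log2 ratio 0.02). LSM4 is the next gene on that side, and whether this site lies at the LSM4 start was not checked. A site 47.4 kb upstream, chr19:18439271-18439533, had 13 and 15 reads with AI-10-49 and 6 and 9 with DMSO (log2 ratio 0.53, groups apart). The EGR1 site 26.9 kb downstream, chr5:137827787-137827925, had 14 and 10 reads with AI-10-49 and 9 and 8 with DMSO (log2 ratio 0.17, groups overlapping).

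Lower relative height in both AI-10-49 libraries was found beyond 2 kb at FOSL2 and KLF6. The FOSL2 region 30.9 kb downstream, chr2:28646839-28647032, had 9 and 13 reads with AI-10-49 and 16 and 13 with DMSO (log2 ratio -0.75). Another, 13.8 kb downstream at chr2:28629709-28629907, had 6 and 7 reads with AI-10-49 and 9 and 7 with DMSO (log2 ratio -0.64). A smaller margin was seen 33.6 kb upstream, at chr2:28582234-28582541, with 8 and 9 reads with AI-10-49 and 8 and 7 with DMSO (log2 ratio -0.16). In reads the AI-10-49 libraries were not lower there. The order rests on the division by each library's median, which gave 0.889 and 0.9 with AI-10-49 and 1.0 and 1.0 with DMSO. The region 17.3 kb downstream, chr2:28633173-28633508, stood the other way, with 12 and 22 reads with AI-10-49 and 8 and 9 with DMSO (log2 ratio 0.63). The KLF6 region 8.41 kb downstream, chr10:3818478-3818698, had 4 and 6 reads with AI-10-49 and 6 and 6 with DMSO (log2 ratio -0.62). FOSL2 and KLF6 thus held shared regions of both directions in 1 window.

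**Figure D4:**
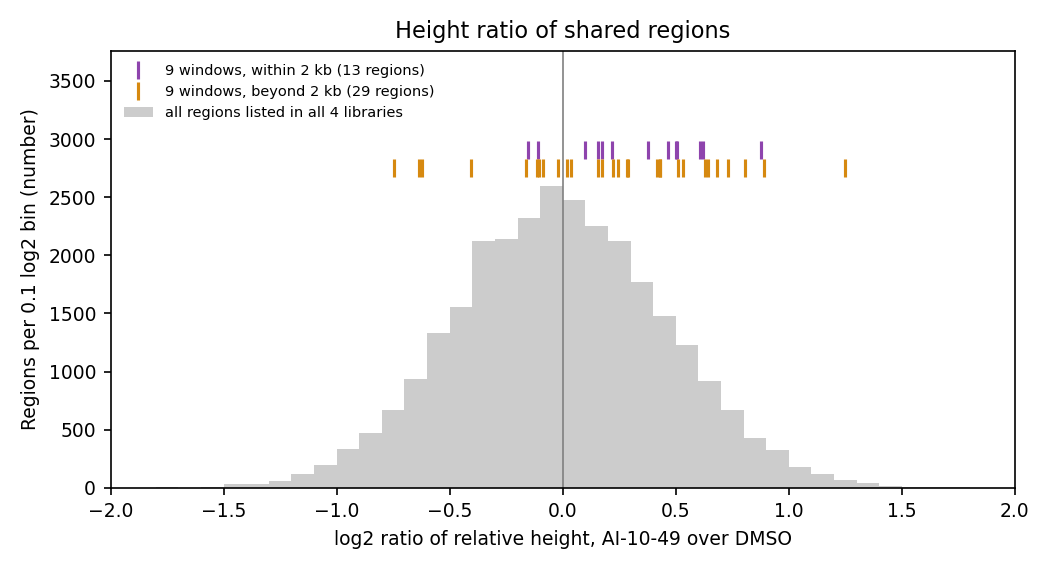
Distribution of the log2 ratio of relative height, AI-10-49 over DMSO, over all shared regions (grey bars, number per bin of 0.1), with ticks for the 42 shared regions of the 9 windows. Their median was 0.26, with 13 regions within 2 kb of a start (purple, median 0.38) and 29 beyond (orange, median 0.25), against a median of -0.02 over all shared regions.

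Over the 42 shared regions, relative height was higher in both AI-10-49 libraries at 15 (35.7%) and lower at 5 (11.9%), against backgrounds of 19.7% and 18.7% over all shared regions. Of the 15, the chromosome 19 genes held 8: FOSB 4, JUNB 2 and JUND 2. The windows on chromosome 19 had 19 shared regions, with 8 higher (42.1%) and 0 lower, against a background of 40.9% higher and 6.76% lower on that chromosome. The other 6 windows had 23, with 7 higher (30.4%) and 5 lower (21.7%), against 18.8% higher and 19.2% lower on chromosomes other than 19. Height moved with strength and local background as well: among shared regions with a mean percentile of at least 75, 25.6% were higher and 16.6% lower. Among shared regions with a local background of at least 5 times the usual one in each library, 36.7% were higher and 10.3% lower. Both splits, and that by chromosome, were made with the values already known. The 9 windows held 17 regions with such a local background, of which 7 were higher and 2 lower, shares of 41.2% and 11.8%. On chromosome 19 the share of higher regions was thus close to its background (42.1% against 40.9%). With high local background the shares were 41.2% and 36.7%. On the other chromosomes the share was above its background (30.4% against 18.8%). The part of these features in the result was not tested. Scaled to the usual background of each library, the median of all shared regions was -0.42 on the log2 scale, and the ratios were 0.48 for JUN, 0.21 for KLF6, 0.18 for JUND and -0.56 for FOS.

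Other genes of the immediate early response were examined at 14 promoters. The strongest region within 2 kb, chosen by mean percentile over the lists holding it, was in all 4 lists at 4 of these. They were IER2, DUSP1, BTG2 and SRF, which are named here after their values were seen. Weaker regions within 2 kb were not counted, so further genes may have a region in all 4 lists. As each region was the strongest of its neighbourhood, the count of 4 is not comparable with the 28.1% of all merged regions. Relative height was higher in both AI-10-49 libraries at 3 of the 4 and lower at 0, against 19.7% and 18.7% over all shared regions, and the median log2 ratio was 0.93. The 3, IER2, DUSP1 and SRF, had a local background of at least 5 times the usual one in every library, a class in which 36.7% of shared regions were higher, and IER2 lies on chromosome 19, where 40.9% were. The part of these features was not tested. DUSP1, a phosphatase that switches off MAP kinases, had 17 and 18 reads with AI-10-49, against 7 and 6 with DMSO (log2 ratio 1.09). IER2 had 23 and 14 reads with AI-10-49 and 9 and 7 with DMSO (log2 ratio 0.90). SRF, the factor that binds CArG boxes, had 26 and 24 reads with AI-10-49 and 14 and 11 with DMSO (log2 ratio 0.67). At the antiproliferative gene BTG2 the groups overlapped, with 9 and 18 reads with AI-10-49 and 8 and 3 with DMSO.

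At FOSL1, a FOS protein, and KLF2, a zinc finger factor of quiescence, the strongest promoter region was AI-10-49-only, with 7 and 6 and with 8 and 8 reads. They were 2 of the 9 promoters whose strongest region was in both AI-10-49 lists (22.2%), against 5.36% of all regions in both. DMSO-only were 0 of the 5 promoters whose strongest region was in both DMSO lists, against 11.8%. With so few promoters neither count was read as a difference. At BATF3, MAFF, NR4A1 and IER3 the strongest region was in 3 lists. At BATF it was listed in DMSO replicate 1 alone with 5 reads, and at ZFP36 in AI-10-49 replicate 1 alone with 10 reads. EGR2 and KLF4 had no listed region.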

How the data were processed

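ATAC-seq of 4 ME-1 libraries was used as deposited, 1 peak list per library on hg19 per the submitters' processing notes. The tools listed there are MACS2 2.1.0, Bowtie2, cutadapt 1.3, deepTools and Picard 1.96. Settings and read totals are not given in the sources used here. For each peak the authors deposited an integer score (not used), a fold over local background, a q-value and a p-value (both as −log10) and a summit position.

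Peaks on the autosomes and X entered, and entries with equal coordinates collapsed to the strongest. Whole summit reads and local background were solved from the deposited fold and p-value, taking counts as Poisson (tolerance 0.001); 4 or 5 peaks per list had no solution, and the step was tested on simulated data. Peaks overlapping by at least 1 bp formed regions. The strongest region had the highest mean percentile of −log10 p-value over its lists. Gene starts came from general knowledge to about 1 kb. Every member was named, with its strongest start region, its strongest shared distal region and all regions of 1 treatment only; further regions were chosen after their values were seen. Other immediate early genes were to be named where a list lacked their promoter region. Members and lists were chosen with earlier results of these data known. Window counts were compared by two-sided exact permutation tests with Benjamini-Hochberg adjustment (scipy 1.17.1). Replicates are libraries of separate experiments per the series' design text. The main comparison did not pair libraries by replicate number. Deviations of replicate 1 from the group means had a correlation of -0.0025 between treatments over 29037 regions. With median summit reads of 7 to 10 in the regions listed in all 4 libraries, this cannot tell whether the libraries were paired.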

Additional observations from a re-analysis of the deposited data

How the results depend on the processing

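Presence of the strongest start region in all lists held for 6 to 8 of the 9 genes under every alternative run, including the strictest lists. The AI-10-49 minus DMSO difference in window peaks, 3.5, was 15.5 among peaks reaching 5 in −log10 q-value, 22 with lists of equal length, 21.5 with at least 5 reads, and turned to -1.5 with at least 60 times the background and to -4.5 with windows of 100 kb; leaving out 1 library gave -0.5 to 7.5. With replicate number as a block it was again 3.5, from pair differences of -3 and 10, and an exact permutation test of 2 pairs cannot go below p = 0.5. DMSO-only regions, 3, numbered 1 of 24 with the q-value limit (4.17%, background 6.4%) and 5 of 44 with 60 times the background (11.4%, background 17%). They numbered 7 of 41 with 50% reciprocal overlap (17.1%, background 16.5%) and 8 of 90 within 100 kb (8.89%, background 11.8%). Without 1 library they numbered 7 to 17 (12.96% to 20.99%, backgrounds 18.58% to 33.95%). AI-10-49-only regions, 6, numbered 11 of 56 with equal lists (19.6%, background 8.47%) and 10 of 50 with reciprocal overlap (background 10.5%). With 60 times the background they numbered 2 of 46 (4.35%, background 3.0%), so DMSO-only regions were the more numerous there. Without 1 library AI-10-49-only regions numbered 13 to 17 (18.18% to 20.97%, backgrounds 11.82% to 15.85%). Leaving a library out loosens these definitions by construction. The median log2 ratio of promoter height, 0.22, was -0.20 scaled to the background and -0.27 as a difference in percentile points. Scaled to the background FOSL2 was -0.32, EGR1 -0.20 and ATF3 -0.52, and in percentile points FOSL2 was -2.88, EGR1 -0.27 and ATF3 -18.58. Without 1 library ATF3 ranged from -0.40 to 0.13 and FOSL2 from -0.024 to 0.23, while JUN, JUND, KLF6 and FOS kept their sign under all height alternatives run, although the groups overlapped at JUND and KLF6 when scaled to the background. By definition the limit of 60 times the background asks for more reads with AI-10-49, where the usual background was 0.0965 and 0.108. With DMSO it was 0.0613 and 0.060. The part of this in the turned counts, and the cause of the other changes, was not tested. With 2 to 31 reads at a summit and 2 libraries a group, small differences in height were not detectable.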
